A study of Mus musculus with 9 samples.

Results

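The immunoglobulin constant genes measured here were Ighm, Ighd, Ighg1, Ighg2b, Ighg2c, Ighg3 and Igha, which encode the constant regions of the heavy chains, and Igkc, which encodes that of the kappa light chain. Jchain, the joining chain that links IgM or IgA molecules, was added to them. They were chosen by name, as every entry of the gene tables whose gene names include a member, and the 9 genes stood among 52176 named genes. They were compared in tumors grown in the liver of C57BL/6 mice (male, 6 to 8 weeks old) from Hepa1-6, a mouse hepatoma cell line. The mice had received PBS or an antibody against PD-1, an inhibitory receptor of T cells, as 5 injections given every 4 days from day 10 to day 26, and each tumor, freed of adjoining tissue, was taken in full on day 27. There were 3 tumors of PBS-treated mice, 3 nonresponsive and 3 responsive tumors of antibody-treated mice, 1 tumor from each mouse. Responsive and nonresponsive were named by size: the 3 smallest and the 3 largest treated tumors were kept and intermediate ones were left out, so the groups are the ends of a range and not random draws from it. The question put to the genes was whether antibody transcripts differed between PBS, nonresponsive and responsive tumors in amount or in class.

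A B cell that leaves the bone marrow carries IgM and IgD on its surface. After activation, class switching joins the same variable region to another constant gene further along the heavy chain locus, which gives IgG1, IgG2b, IgG2c, IgG3, IgE or IgA, each bound by its own set of Fc receptors. Plasma cells then secrete the antibody in large amounts, and their transcripts are largely those of one heavy chain, one light chain and, in most of them, the joining chain. The joining chain attaches to a short tail at the end of the secreted IgM and IgA heavy chains, and polymers that hold it are carried across epithelia by the receptor Pigr.

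The tails that the joining chain binds are the part that IgM and IgA share and IgG lacks, and their coding sequences are shown for that reason. They are the last 54 coding bases of the secreted transcripts in GENCODE M21 (GRCm38, minus strand), at chr12:113420870-113420923 for Ighm and chr12:113258771-113258824 for Igha, both in the last exon of the secreted form. Capitals mark the codon of the penultimate cysteine, through which the tail is linked.
Ighm: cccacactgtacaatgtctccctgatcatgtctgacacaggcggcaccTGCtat
Igha: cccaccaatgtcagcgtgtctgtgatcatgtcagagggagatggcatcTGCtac

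The 4 IgG genes resemble each other in sequence. Whether this affected how reads were assigned to them was not tested. Over the coding sequence of the secreted forms, Ighg2b and Ighg2c were identical at 86.3% of aligned bases, with a longest identical stretch of 78 bases. The other pairs of IgG genes lay between 76.1% (Ighg1 and Ighg3) and 78.5% (Ighg1 and Ighg2c). The first 90 coding bases of their first constant exon are given below in the same annotation, and capitals mark the 29 positions at which the 4 genes are not all alike. They lie on the minus strand at chr12:113330434-113330523 for Ighg1, chr12:113307844-113307933 for Ighg2b, chr12:113288843-113288932 for Ighg2c and chr12:113361143-113361232 for Ighg3.
Ighg1: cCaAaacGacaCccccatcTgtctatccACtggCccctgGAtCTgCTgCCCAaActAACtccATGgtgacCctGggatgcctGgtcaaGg
Ighg2b: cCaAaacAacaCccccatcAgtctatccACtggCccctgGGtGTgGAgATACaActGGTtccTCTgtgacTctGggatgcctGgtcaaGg
Ighg2c: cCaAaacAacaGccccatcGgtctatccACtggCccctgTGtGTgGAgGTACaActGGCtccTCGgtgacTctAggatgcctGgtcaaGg
Ighg3: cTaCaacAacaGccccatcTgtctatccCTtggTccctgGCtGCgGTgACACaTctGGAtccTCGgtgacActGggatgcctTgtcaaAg

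Levels are FPKM, the fragments of a gene scaled by its length and by all mapped fragments, as deposited for each tumor. The number of fragments is not given in the files. From the spacing of the lowest values, each tumor was read to a depth of 0.938 to 1.07 relative to PBS tumor 1, and 12533 to 13328 named entries reached an FPKM of 1. PBS tumor 1 stood apart, since entries without a gene name took 81.5% of its FPKM (19.2% to 73.2% in the other tumors) and it was the lowest of the 9 tumors in the B cell, plasma cell, T cell, macrophage and hepatocyte gene lists used below. Markers of other tissues were high in some tumors. The 9 pancreatic acinar genes summed to an FPKM of 1736 in nonresponsive tumor 2 and to 18.1 or less in the other tumors. The mean log2(FPKM + 1) of skeletal muscle genes was 4.89 in nonresponsive tumor 3 and 3.34 in PBS tumor 1. It was 0.557 to 1.45 in the other tumors. Since PBS tumor 1 stood apart, means, fold changes and list medians against PBS are also given without it.

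How the genes could be read depended on the entries. Transcripts had been assembled in each tumor by itself, so the same neighbors could share an entry in one tumor and be listed apart in another. Jchain, on chromosome 5, had an entry of its own in all 9 tumors. Igkc, on chromosome 6, shared its entry with kappa joining segments in every tumor, with Gm30211 in some, and with variable segments in nonresponsive tumor 2 and responsive tumor 3. The 7 heavy chain genes lie side by side on chromosome 12. All 7 were in 1 entry in PBS tumor 2, nonresponsive tumors 2 and 3 and responsive tumor 2, together with joining segments, and in PBS tumor 2 also with Ighe. In PBS tumor 1 only Ighg3 and Ighd stood apart, at FPKM of 1.11 and 0.195. Ighm, Ighd, Ighg3 and Igha had entries of their own in PBS tumor 3, nonresponsive tumor 1 and responsive tumors 1 and 3. Ighg2c was alone in responsive tumors 1 and 3 and Ighg2b in responsive tumor 3. The heavy chain is therefore given as the sum of these entries, each counted once, and the classes only in the 4 tumors that list them apart.

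Antibody transcripts were among the most abundant of the tumors. Igkc had the highest FPKM of all named entries in PBS tumors 2 and 3, nonresponsive tumor 1 and responsive tumors 1 and 3, was 4th and 2nd in nonresponsive tumors 2 and 3 and 20th in responsive tumor 2. In PBS tumor 1 it was 817th. All members together took 0.0274%, 3.497% and 2.22% of the FPKM of named entries in PBS tumors 1 to 3. In nonresponsive tumors this share was 3.82%, 1.82% and 1.94%, and in responsive tumors 4.61%, 0.895% and 6.95%. The groups overlapped, with the lowest and the highest share of the treated tumors both in the responsive group.

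The summed heavy chain entries had FPKM of 72.3, 10522 and 6383 in PBS tumors 1 to 3. They had 9811, 4574 and 5183 in nonresponsive tumors and 14311, 2689 and 23289 in responsive tumors. Responsive tumors 1 and 3 were above all other tumors and responsive tumor 2 was below all but PBS tumor 1. The mean was 5659 ± 5262 (SD, n = 3) in PBS tumors. It was 6523 ± 2864 (SD, n = 3) when nonresponsive and 13429.7 ± 10328 (SD, n = 3) when responsive, so the spread within the responsive group was larger than the distance between the means. Without PBS tumor 1 the PBS mean was 8452.

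Igkc, the constant gene of most mouse light chains, had FPKM of 109, 13735 and 9847 in PBS tumors. The nonresponsive tumors had 17259, 6978 and 8169 and the responsive tumors 21416, 4037 and 32375.5. The order of the tumors was the same as for the heavy chain except that nonresponsive tumor 1 stood above PBS tumor 2. Its means were 7897 ± 7019 (SD, n = 3), 10802 ± 5624 (SD, n = 3) and 19276 ± 14289.7 (SD, n = 3), and that of PBS was 11791 without PBS tumor 1.

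Jchain, the member with an entry of its own throughout, had FPKM of 6.24, 486 and 236 in PBS tumors. It had 302, 275 and 149.96 in nonresponsive tumors and 822, 127 and 962 in responsive tumors. Again responsive tumors 1 and 3 were highest, PBS tumor 2 came next, and responsive tumor 2 lay under all 3 nonresponsive tumors. The means were 243 ± 239.9 (SD, n = 3), 242 ± 81.2 (SD, n = 3) and 637 ± 447 (SD, n = 3). With PBS tumor 1 left out the PBS mean was 361, and the ratio of the nonresponsive to the PBS mean went from 0.999 to 0.672. In whole tumors, fewer cells that make antibody and less antibody RNA per cell cannot be told apart. The interval that Cufflinks gives for each entry is narrow beside these differences, reaching 3.27% to 4.85% of the Jchain value to either side in 8 tumors and 18.3% in PBS tumor 1.

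**Figure D1:**
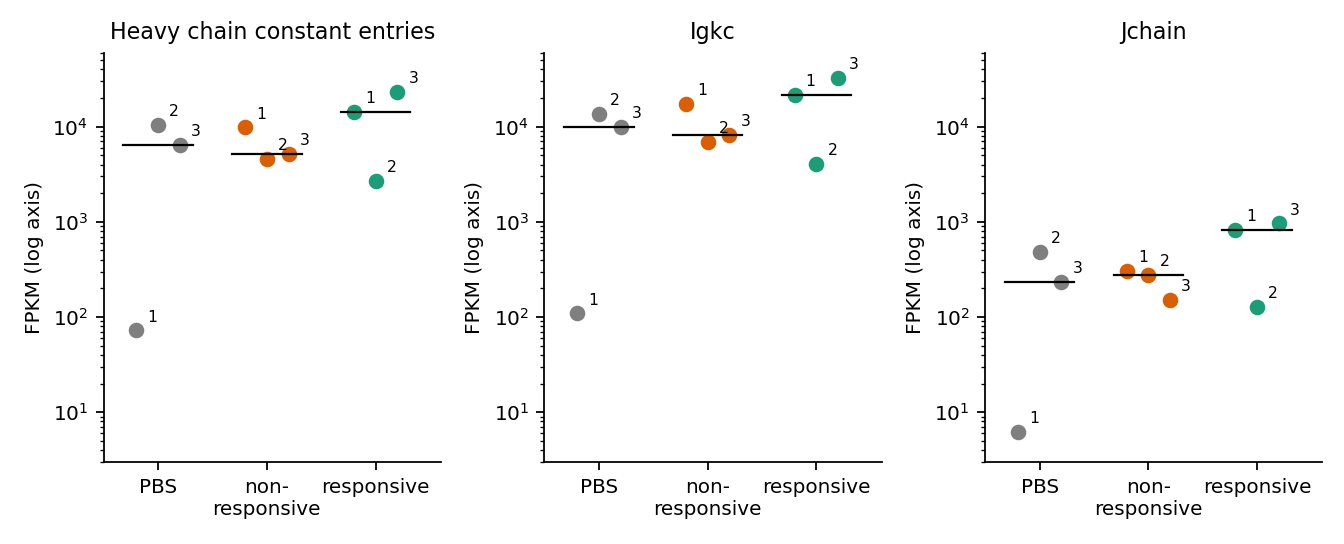
FPKM (log axis) of the summed heavy chain constant entries, Igkc and Jchain in each tumor, with the tumor number beside each point and the group median as a line. In all 3 panels PBS tumor 1 lies far below the other tumors, responsive tumors 1 and 3 are highest and responsive tumor 2 is the lowest of the treated tumors.

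The members varied together across tumors. The heavy chain varied over 322-fold and Igkc over 297-fold between the lowest and the highest tumor, yet the ratio of heavy chain to Igkc stayed between 0.568 and 0.766 in all 9. It was 0.662, 0.766 and 0.648 in PBS tumors, 0.568, 0.656 and 0.634 in nonresponsive tumors and 0.668, 0.666 and 0.719 in responsive tumors. The ratio was above all nonresponsive values in each responsive tumor, while the PBS values lay on both sides. Tumors with a merged heavy chain entry and tumors with several entries fell in the same range. An effect of the merging on the sum was not tested. The correlation of log2(FPKM + 1) between heavy chain and Igkc over the 9 tumors was 0.999, and 0.992 over the 8 tumors without PBS tumor 1. These values come from the same libraries and share their scaling.

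Jchain followed less closely. Its FPKM was 8.64%, 4.62% and 3.70% of that of the heavy chain in PBS tumors, 3.08%, 6.01% and 2.89% in nonresponsive tumors and 5.75%, 4.71% and 4.13% in responsive tumors. The groups overlapped. Its correlation with the heavy chain was 0.982 over 9 tumors and 0.932 over the 8 without PBS tumor 1.

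The lambda light chain is encoded by its own constant genes, Iglc1, Iglc2 and Iglc3, which are not members and were summed for comparison. Lambda entries took 7.27%, 6.75% and 2.48% of kappa and lambda FPKM together in PBS tumors, 11.2%, 3.11% and 9.36% in nonresponsive tumors and 8.61%, 25.4% and 7.11% in responsive tumors. Responsive tumor 2 had the largest lambda share and responsive tumor 3 differed from it by 8.02-fold in Igkc but by 1.81-fold in lambda FPKM. The lambda genes shared entries with joining and variable segments in several tumors, which were included in the sums.

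**Figure D2:**
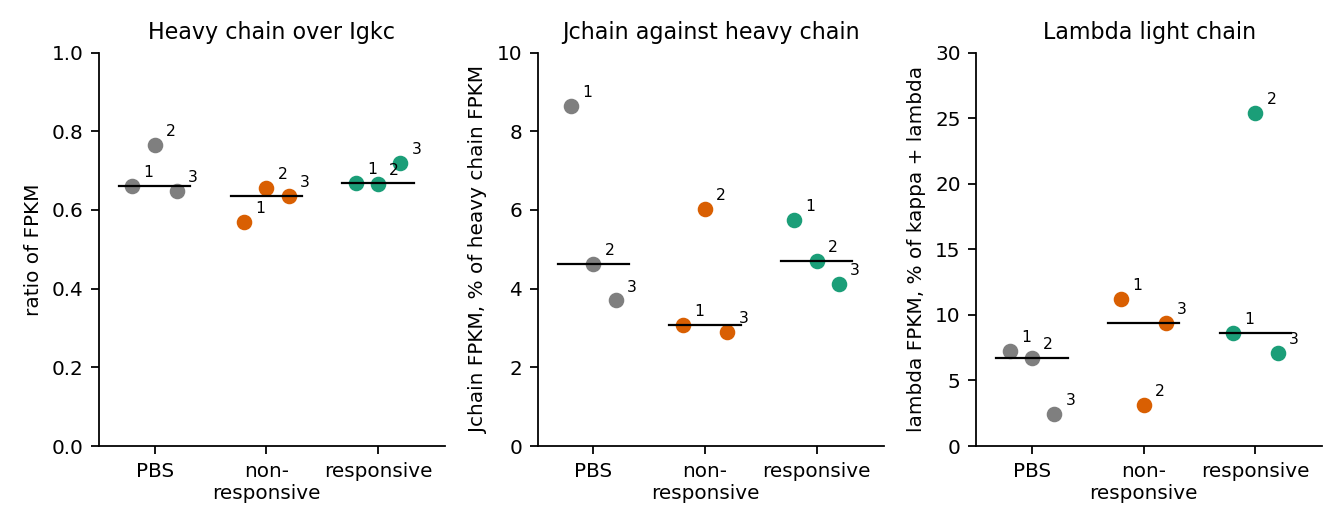
Ratio of heavy chain to Igkc FPKM, Jchain FPKM as a percent of heavy chain FPKM, and lambda FPKM as a percent of kappa and lambda FPKM, by tumor, with the tumor number beside each point and the group median as a line. The first ratio stays between 0.568 and 0.766 in all 9 tumors, and the lambda share reaches 25.4% in responsive tumor 2.

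The classes could be read in PBS tumor 3, nonresponsive tumor 1 and responsive tumors 1 and 3. The IgG entries prevailed in each of them. Those of Ighg1, Ighg2b and Ighg2c, with joining segments, took 87.7%, 85.8%, 77.4% and 90.9% of the heavy chain FPKM in these tumors, in this order. In responsive tumor 3, the only tumor that lists them apart, the entry of Ighg1 and joining segments had an FPKM of 15192 (65.2%), Ighg2c of 3270.5 (14.0%) and Ighg2b of 2707 (11.6%). Joining segments belong to heavy chains of every class and were part of an IgG entry in each of these tumors. The IgG shares can therefore hold fragments of other classes too. In responsive tumor 1 Ighg2c had an FPKM of 1513, or 10.6% of the heavy chain.

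Igha, the heavy chain of the antibody of mucosal surfaces, was at FPKM of 328 in PBS tumor 3, 742 in nonresponsive tumor 1, 2337 in responsive tumor 1 and 1283 in responsive tumor 3. Its share of the heavy chain was 5.14%, 7.57%, 16.3% and 5.51%, so that responsive tumor 1 stood apart and responsive tumor 3 did not. Ighm, the class of the first antibody a B cell makes, was at 265, 436, 639 and 710.2 in the same order. Its share was steadier, at 4.15%, 4.45%, 4.46% and 3.05%. The ratio of Igha to Ighm was 1.24, 1.70, 3.66 and 1.81.

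Ighg3, a class made mostly against polysaccharides, was at FPKM of 185, 206, 231 and 101 in PBS tumor 3, nonresponsive tumor 1 and responsive tumors 1 and 3. Its share was 2.91%, 2.101%, 1.61% and 0.436%, lowest in the tumor with the most heavy chain RNA. Ighd, which is spliced from the same transcript as Ighm and is a surface class of naive B cells, was at 7.74, 5.10, 22.5 and 24.9. Responsive tumors 1 and 3 had the higher Ighd values, and Ighd stood at 2.92%, 1.17%, 3.52% and 3.51% of Ighm. With 1 PBS, 1 nonresponsive and 2 responsive tumors, shares of classes could not be compared between groups by a test. Jchain amounted to 39.8%, 25.6%, 27.6% and 48.3% of the summed FPKM of Ighm and Igha, the classes whose tails it binds, in the same 4 tumors.

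**Figure D3:**
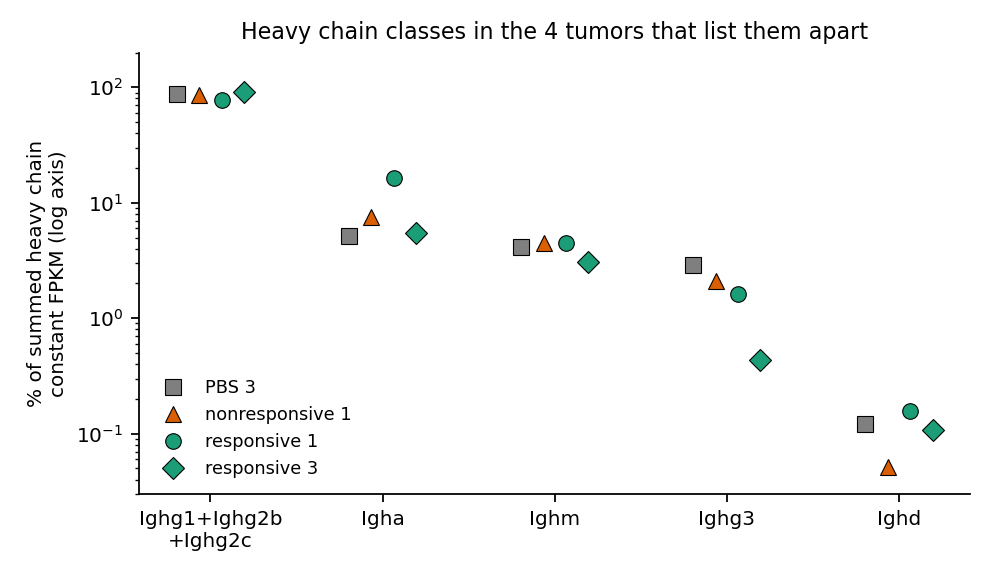
Share of the summed heavy chain FPKM (percent, log axis) taken by the entries of Ighg1, Ighg2b and Ighg2c, by Igha, Ighm, Ighg3 and Ighd, in the 4 tumors whose tables list these classes apart. The IgG entries lie between 77.4% and 90.9%, and Igha is highest in responsive tumor 1 at 16.3%.

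Ighe, the heavy chain of the allergy-related class and not a member, had an entry of its own in 8 tumors. It was listed at 0 and 1.62 in PBS tumors 1 and 3, at 2.15, 0.422 and 0.676 in nonresponsive tumors and at 6.07, 0.521 and 33.0 in responsive tumors. The highest values were again those of responsive tumors 1 and 3. Responsive minus nonresponsive gave 1.87 on the log2(FPKM + 1) scale (SE 1.11, limma adjusted p = 0.957).

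A deposited table of group values lists some classes apart for all 3 groups, as the authors' value over the tumors of a group and without an SD. In it Igha had an FPKM of 496 in PBS, 529 in nonresponsive and 1505 in responsive tumors, which was 11.2%, 9.67% and 12.7% of the heavy chain. Ighg2c was at 781, 1206 and 1589 and Ighg3 at 84.8, 130.4 and 116. The Ighg2c share of the heavy chain was 17.67%, 22.03% and 13.41%, lowest in responsive tumors although its FPKM was highest there. The Ighg3 share was 1.92%, 2.38% and 0.9749%. Ighd was at 5.53, 4.58 and 19.1. Ighg1, Ighg2b and Ighm shared 1 entry there. These values have no replicate error. In the heavy chain sum, the highest tumor of a group stood 146-fold above the lowest in PBS, 2.14-fold in nonresponsive and 8.66-fold in responsive tumors.

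Each comparison was tested with limma on log2(FPKM + 1) over the 6 tumors it involves, among all 15177, 15197 and 15153 features tested for responsive against nonresponsive, responsive against PBS and nonresponsive against PBS. At an unadjusted p under 0.05, 5.44%, 17.3% and 3.19% of all features passed in these comparisons. The last 2 share the PBS tumors, and the first shares tumors with both. Of the heavy chain sum, Igkc and Jchain, 0 of 3 passed in any comparison, before or after adjustment.

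Between responsive and nonresponsive tumors the heavy chain differed by a log2 fold change of 0.65 (SE 0.864, 95% interval −1.47 to 2.77, adjusted p = 0.971). For Igkc it was 0.50 (SE 0.870, −1.63 to 2.64, adjusted p = 0.976) and for Jchain 1.00 (SE 0.832, −1.04 to 3.04, adjusted p = 0.971). The groups overlapped in all 3, and each interval holds changes in both directions. These results rested on responsive tumor 2. Without it the log2 fold changes were 1.57, 1.40 and 1.93, all 3 past an unadjusted p of 0.05 and none after adjustment (adjusted p from 0.758 to 0.770), and the groups no longer overlapped. In that fit 6.42% of all features passed and 23.6% did not overlap. Without responsive tumor 3 that of Igkc was −0.097.

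Responsive tumor 2 was 8th of 9 in heavy chain, Igkc and Jchain. By the mean log2(FPKM + 1) of marker lists it was 4th in B cell genes, 6th in plasma cell genes, 3rd in T cell genes, 3rd in hepatocyte genes and 8th in macrophage genes. It was 4th in summed lambda FPKM.

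Between responsive and PBS tumors the log2 fold changes of heavy chain, Igkc and Jchain were 2.50 (SE 2.08), 2.52 (SE 2.05) and 2.31 (SE 1.76), with adjusted p of 0.492, 0.484 and 0.462. Without PBS tumor 1 they were 0.23, 0.28 and 0.46, with adjusted p of 0.931, 0.915 and 0.863. Between nonresponsive and PBS tumors they were 1.85 (SE 1.93), 2.02 (SE 1.91) and 1.31 (SE 1.59), with adjusted p of 0.724, 0.722 and 0.740. Without PBS tumor 1 the direction turned in all 3, to −0.41, −0.23 and −0.54, again with 0 of 3 past an unadjusted p of 0.05. The sign of nonresponsive against PBS tumors thus rested on 1 tumor.

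**Figure D4:**
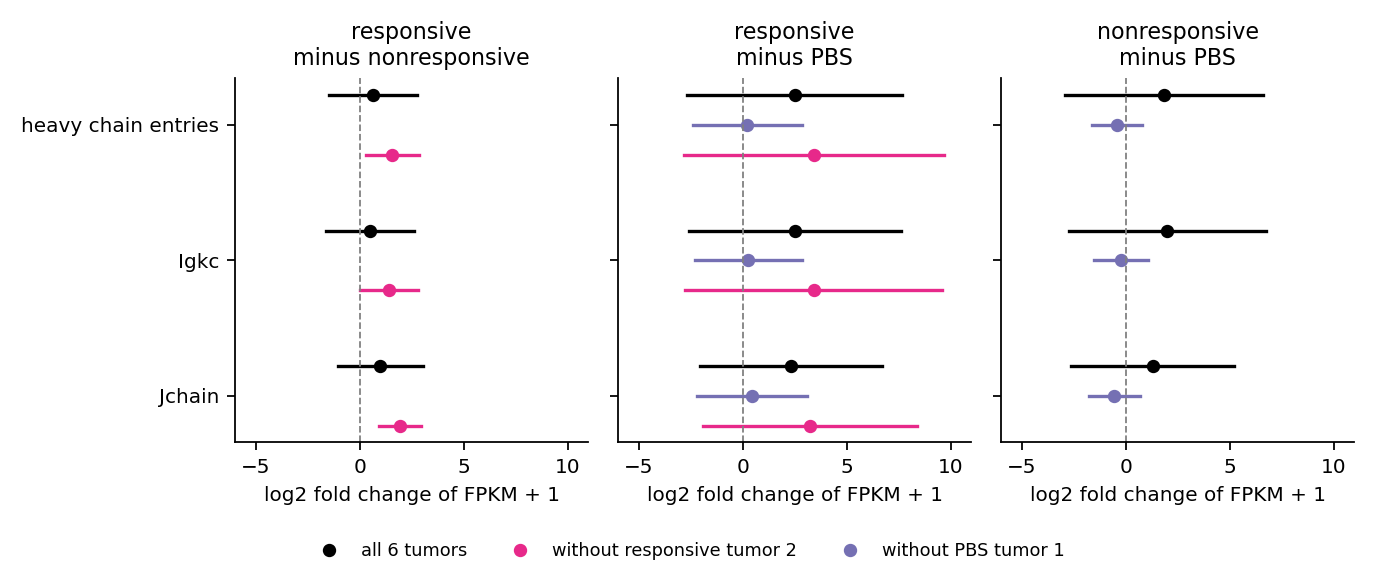
Log2 fold change of FPKM + 1 (points) with its 95% interval (lines) from limma for the heavy chain entries, Igkc and Jchain in the 3 comparisons, with all 6 tumors and without PBS tumor 1 or responsive tumor 2. With all tumors every interval holds 0, and without responsive tumor 2 those of responsive minus nonresponsive do not.

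Tested by gene symbol, as if each entry belonged to the gene alone, 1 of 9 members passed in responsive against nonresponsive tumors. In each of the other 2 comparisons, responsive and nonresponsive against PBS, 0 of 9 passed. Of all features, 5.44%, 17.3% and 3.19% passed in these comparisons. The median log2 fold changes over the 9 were −0.51, 1.35 and 1.90 against −0.060, −0.11 and −0.056 over all features. For the heavy chain genes these values mix shared and separate entries that differ between tumors. The medians are therefore no measure of the single genes. The 1 was Ighg2c, at −1.30 (SE 0.426, adjusted p = 0.887). In the 3 nonresponsive tumors and responsive tumor 2 its value was that of a shared entry and in responsive tumors 1 and 3 that of Ighg2c alone, so the 2 groups do not hold the same quantity and the value is no measure of Ighg2c. In the group table, where Ighg2c is apart in each group, the responsive FPKM was above the nonresponsive one. The share of Ighg2c in the heavy chain was lower there in responsive than in nonresponsive tumors.

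The genes that plasma cells use were compared with the antibody genes they serve. The 16 plasma cell genes had a median log2 fold change of 0.47, responsive against nonresponsive. Of these, 2 were higher at p under 0.05 and 0 lower, where 5.44% of all features passed. Leaving out responsive tumor 2 gave 5, and leaving out nonresponsive tumor 2 or 3 or responsive tumor 1 or 3 gave 1, with Creld2 the gene lost. Creld2, a chaperone of the endoplasmic reticulum, had FPKM of 82.5, 53.8 and 45.6 in nonresponsive tumors against 104, 85.5 and 95.5 in responsive ones (log2 fold change 0.68, adjusted p = 0.887). Its call was lost in 5 of the 6 fits that leave out a tumor, with the filter at an FPKM of 5, with both other scalings (0.48 when scaled to named entries) and in the fit of 9 tumors. The other, Fkbp11, shared its entry with Arf3 in the 3 responsive tumors and in none of the nonresponsive ones, so its values of 65.9, 81.5 and 55.0 against 27.1, 28.3 and 30.7 are not of the same quantity. Against PBS, where 17.3% of all features passed, responsive tumors were higher in 2 plasma cell genes of 15 tested, a share no larger than that of all features. These were Creld2 (1.08, adjusted p = 0.281) and Herpud1, which acts in protein degradation at the endoplasmic reticulum (1.14, adjusted p = 0.279), with a median of 0.60 for the 15 genes. In the fit without PBS tumor 1 Creld2 was at 0.70 and no longer passed and Herpud1 at 0.85, with a median of 0.21. The count was 0 without responsive tumor 1 or with the replicate block. In nonresponsive against PBS tumors 0 rose and 1, the same Fkbp11 with its changing entry, was lower (median 0.28, and −0.29 without PBS tumor 1).

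Mzb1, a chaperone of antibody assembly, had FPKM of 4.42, 130.1 and 43.8 in PBS, 79.7, 27.8 and 33.1 in nonresponsive tumors and 166, 36.4 and 204 in responsive ones. As for Jchain, responsive tumors 3 and 1 were highest and PBS tumor 2 came next, but responsive tumor 2 lay above nonresponsive tumors 2 and 3. The Mzb1 entry also held Gm50318 and Spata24 in every tumor, so these values are not of Mzb1 alone. The log2 fold change of Mzb1 in responsive over nonresponsive tumors was 1.34 (SE 0.756, adjusted p = 0.939). Xbp1, the transcription factor that drives the secretory program, was at 215, 159 and 121 in nonresponsive tumors against 261, 148 and 273 in responsive ones (0.45, SE 0.350, adjusted p = 0.971). Xbp1, Txndc5 and Sdc1 were the plasma cell genes with the highest FPKM, and liver and tumor cells also express them. Txndc5, an enzyme of disulfide formation, and Sdc1, a surface proteoglycan, had log2 fold changes of 0.024 and 0.23 (adjusted p = 0.998 and adjusted p = 0.971).

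Genes of B cells themselves were also compared. Responsive against nonresponsive, 9 of 14 B cell genes were higher at p under 0.05 and 0 lower (5.44% of all features passed), with a median log2 fold change of 1.45, and 0 passed after adjustment. Among them were Cd79a, Cd79b, Ms4a1, Pax5, Cd22, Ly6d, Fcmr and Spib. Fcmr, a receptor for IgM, had FPKM of 3.58, 2.13 and 0.994 in nonresponsive tumors against 9.94, 6.41 and 15.2 in responsive ones (1.84, SE 0.423, adjusted p = 0.887). Responsive tumor 2 was the lowest of its group in Fcmr but, unlike in the antibody genes, above all nonresponsive tumors. In this comparison 10.7% of all features did not overlap between the groups.

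Cd79a, a signaling chain of the B cell receptor, was listed at 0 in nonresponsive tumor 1 while its partner Cd79b was at 21.7 there, and its log2 fold change of 3.41 was 2.40 without that tumor. The count of 9 was 5 without nonresponsive tumor 2, nonresponsive tumor 3 or responsive tumor 1, and 12 without responsive tumor 2. In the last of these fits 6.42% of all features passed. The B cell genes of highest FPKM were Cd37, Ly6d and Cd79b, with means over the 9 tumors of 38.9, 38.5 and 28.0. Against PBS tumors, where 17.3% of all features passed, 6 B cell genes were higher in responsive tumors and 0 lower. The median was 1.66, and 1.05 without PBS tumor 1. The count of 6 was 2 without PBS tumor 1, 11 without PBS tumor 2 and 1 without PBS tumor 3. It was 10 without responsive tumor 2 and 0 without responsive tumor 1 or 3. Of all features, 9.1% passed without PBS tumor 1 and 28.8% without responsive tumor 2. In nonresponsive against PBS tumors 0 of 14 passed (median 0.27, and −0.43 without PBS tumor 1).

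**Figure D5:**
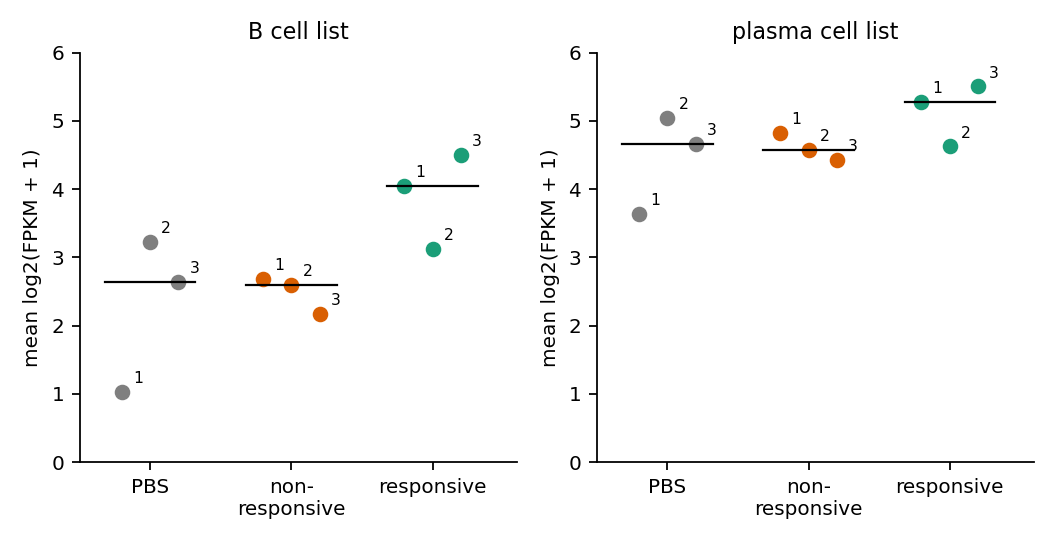
Mean log2(FPKM + 1) of the 14 B cell genes and of the 16 plasma cell genes in each tumor, with the tumor number beside each point and the group median as a line. In B cell genes all 3 responsive tumors lie above the nonresponsive ones, and in plasma cell genes responsive tumor 2 lies among them.

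Of 12 genes of germinal centers and class switching, 10 were tested between responsive and nonresponsive tumors (median 0.00094). Of these, 2 were higher and 0 lower, where 5.44% of all features passed. Fcer2a, the low-affinity IgE receptor of B cells, had FPKM of 2.17, 1.30 and 1.35 against 9.09, 4.23 and 13.4 (1.83, SE 0.408, adjusted p = 0.887). The other, Mef2b, a transcription factor of germinal center B cells, shared its entry with Borcs8 in all tumors (0.64, adjusted p = 0.887). Against PBS, where 17.3% of all features passed, both were higher in responsive tumors (2.097 and 0.65, each with adjusted p = 0.279). Msh6, a mismatch repair gene also used in class switching, was lower (−0.85, adjusted p = 0.279). The median was 0.54 for the 10 genes tested. Leaving out PBS tumor 1, Msh6 was at −0.80 and no longer passed, while Fcer2a and Mef2b did, at 1.63 and 0.57. The median was 0.40, and 9.1% of all features passed in that fit. In nonresponsive against PBS tumors 0 of 8 passed (median −0.0012, and −0.13 without PBS tumor 1). S1pr2, a receptor that keeps B cells in germinal centers, and Mef2b had means over the 9 tumors of 20.1 and 20.05.

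Of 14 genes of B cell help and switch cytokines, 11 were tested between responsive and nonresponsive tumors (median 0.13). Where 5.44% of all features passed, 1 of these was higher and 0 lower. It was Tnfrsf13c, the receptor for the B cell survival factor BAFF, with FPKM of 3.08, 1.91 and 1.65 against 14.3, 4.38 and 16.9 (1.85, SE 0.502, adjusted p = 0.887). In the comparisons with PBS 0 passed, of 11 in responsive (median 0.37) and of 12 in nonresponsive tumors (median 0.17). These medians were 0.093 and −0.029 without PBS tumor 1. Tgfb1, Tnfsf13 and Cd40 had the highest means, at 98.6, 89.9 and 18.6. The Tnfsf13 entry held Tnfsf12 and Tnfsfm13 in every tumor and Senp3 in several. It was at 458 in PBS tumor 2, where it also held Eif4a1, so its mean is no measure of Tnfsf13 alone. Tgfb1 promotes switching to IgA, Tnfsf13 supports plasma cells, and Cd40 receives help from T cells.

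Receptors on other cells bind the antibody once it is secreted. Of 8 genes of antibody receptors and transport tested between responsive and nonresponsive tumors, 2 were lower and 0 higher (median −0.59). In this comparison 5.44% of all features passed. Fcgr1, the high-affinity IgG receptor, had FPKM of 47.0, 42.5 and 24.4 in nonresponsive tumors against 20.9, 16.4 and 23.2 in responsive ones (−0.84, SE 0.305, adjusted p = 0.887). Fcgr4, which binds IgG2 classes, had 138, 127 and 97.9 against 75.2, 40.2 and 83.3 (−0.91, SE 0.335, adjusted p = 0.887). Against PBS, where 3.19% of all features passed, Fcgr1 and Fcgr4 were higher in nonresponsive tumors (1.02 and 0.74, each with adjusted p = 0.719). The median was 0.64 for the 8 genes. Without PBS tumor 1 neither of the 2 passed (0.84 and 0.52, with a median of 0.38). In responsive against PBS tumors, where 17.3% of all features passed, 1 of 8 was higher, which is no larger a share. It was Fcgrt, which protects IgG from breakdown (0.65, adjusted p = 0.279, and 0.51 and no longer past the threshold without PBS tumor 1), with a median of −0.0068 for the 8 genes and of −0.39 without that tumor. Fcer1g, Fcgr3 and Fcgr2b had the highest means, at 459, 243 and 231, where Fcgr3 and Fcgr2b shared an entry in some tumors. Pigr, which carries polymers that hold the joining chain, had 2.18, 26.1 and 48.3 in PBS, 82.3, 48.7 and 28.0 in nonresponsive tumors and 144, 53.0 and 110.3 in responsive tumors.

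Marker lists of other cells moved with the groups, and their part in the values above was not tested. Of 15 hepatocyte genes, responsive tumors were higher in 7 than nonresponsive and in 14 than PBS tumors (medians 1.40 and 2.88). Their summed FPKM ranged from 519 to 6349 in PBS tumors, from 4251 to 15222 when nonresponsive and from 13693 to 24867 when responsive. Of 13 T cell genes, 5 were higher against nonresponsive tumors and 0 against PBS (medians 0.45 and 0.86), with summed FPKM of 112 to 346, 207 to 293 and 300.5 to 423. Of 10 macrophage genes, 0 passed between responsive and nonresponsive tumors (median −0.47), and 2 were higher than in PBS in responsive and 2 in nonresponsive tumors. Of all features, 5.44% passed in responsive against nonresponsive, 17.3% in responsive against PBS and 3.19% in nonresponsive against PBS tumors. In nonresponsive against PBS tumors 0 hepatocyte and 0 T cell genes passed (medians 1.42 and 0.29). Responsive tumors were higher than PBS in 14 hepatocyte genes without PBS tumor 1 (median 1.91), the T cell median was 0.43 and 0 macrophage genes passed in either comparison with PBS. Nonresponsive against PBS, the hepatocyte and T cell medians were then 0.46 and −0.15. Without that tumor, 9.1% of all features passed in responsive and 1.58% in nonresponsive against PBS tumors. Acinar and muscle genes were mostly too low to test, and 1 of them passed, Mylpf, lower in responsive than in nonresponsive tumors.

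The genes most like the members across tumors were named by their correlation of log2(FPKM + 1) with Jchain and with Igkc over the 9 tumors, among 14818 features. Closest to Jchain were the variable segment Ighv1-26 (r = 0.987), Slpi with Mir7678 in the same entry (0.981), and Satb1 with Gm36931 in the same entry (0.978). Over the 8 tumors without PBS tumor 1 these were 0.969, 0.913 and 0.940. Closest to Igkc were the joining segments Igkj1, Igkj2, Igkj4 and Igkj5 of its own entry and then Ighg1 (0.995, and 0.968 without PBS tumor 1). Ighg1 shared its entry with other heavy chain genes in every tumor but responsive tumor 3, so this is no measure of Ighg1 alone. Outside the entries that hold members, the entry of Slpi, a secreted protease inhibitor, was closest to Igkc (0.995, and 0.994 without PBS tumor 1), with FPKM of 9.86, 1409.75 and 889.7 in PBS tumors, 1693, 505 and 580.4 in nonresponsive tumors and 2427, 286 and 3323 in responsive tumors. Mzb1 correlated with Jchain at 0.950, the T cell gene Cd3e at 0.913, Ms4a1 at 0.906, Alb at 0.847 and Cd79a at 0.659. Without PBS tumor 1 they were at 0.909, 0.555, 0.855, 0.541 and 0.477. The points share 9 libraries and 1 tumor lies far from the rest, so the values describe these tumors alone.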

How the data were processed

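RNA of 9 whole tumors was sequenced, and the authors deposited for each a Cufflinks table of FPKM per entry, with transcripts assembled tumor by tumor. The submitters' processing notes name TopHat2 2.1.1, Bowtie2 2.2.4 and the build mm8. The positions in the files were not matched to that build and are not printed. The deposited table for the whole series holds group FPKM and the fold changes and p-values of the authors' own comparisons, of which only the group FPKM were used.

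Entries whose comma-separated names include a gene were summed per tumor, and 13 genes with a failed estimate were left out. Groups followed the sample titles. To enter a test, a feature had to reach an FPKM of 1 in 3 or more of the 6 tumors. R 4.3.3 and limma 3.58.1 (lmFit, eBayes with trend, two-sided, Benjamini-Hochberg over all features) were then used on log2(FPKM + 1). A fold change on this scale understates that of low genes. The summed heavy chain entries, each counted once, were added after the entries were seen, since the planned test by gene symbol compares different sets of genes. A planned exact permutation test of class shares was not possible, as only 4 tumors list the classes apart. For 3 tumors against 3 an exact permutation test could not go below p = 0.1. Tables and plots were made with matplotlib 3.10.9, pandas 2.3.3 and numpy 2.4.6 (Python 3.11.15), and the fit was tested on simulated data. Sequences are from GENCODE M21 transcripts. Depth is known only in relative terms, so no counting interval is given beyond that of Cufflinks. No 2 tumors were duplicates.

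The members and the gene lists were chosen with earlier results of these data known. Named are all members, the 3 genes of highest mean FPKM of the antibody-related lists and genes of these with p under 0.05 (at most 5 of a list), and the 5 features most like Jchain and Igkc. Some genes this rule would name are not reported here. Others, Pigr, Mzb1, Ms4a1, Alb, Cd3e, Mylpf, Slpi as the gene closest to Igkc outside member entries, and further B cell genes, were chosen after their values were seen. Hepatocyte, T cell and macrophage lists are given by counts. Alternatives were a pseudocount of 0.1, no filter, a filter at an FPKM of 5, 2 other scalings, joined loci, a replicate block, a single fit of all 9 tumors, and leaving out each tumor in turn.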

Additional observations from a re-analysis of the deposited data

How the results depend on the processing

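For the heavy chain sum, Igkc and Jchain in the 3 comparisons, all 72 values under other settings than leaving out a tumor kept their direction and stayed short of the 0.05 threshold. Leaving out a tumor reversed 4 of 54 values and brought 3 past the 0.05 threshold. Responsive over nonresponsive, the log2 fold changes went from 0.013 to 1.57 for the heavy chain, from −0.097 (without responsive tumor 3) to 1.40 for Igkc and from 0.48 to 1.93 for Jchain, and 0 to 3 of the 3 passed the 0.05 threshold. All upper values are without responsive tumor 2. Over PBS, nonresponsive tumors went from −0.41, −0.23 and −0.54 (without PBS tumor 1) to 3.17, 3.26 and 2.49. Responsive tumors went from 0.23, 0.28 and 0.46, also without PBS tumor 1, to 3.82, 3.76 and 3.49. The mean summed FPKM of the members ranged from 8327 to 20604 in PBS, from 12665 to 20437 in nonresponsive and from 21701 to 46588 in responsive tumors when 1 tumor was left out, and moved by less than 1 SD under the 2 other scalings. Deviations of same-numbered tumors from their group means correlated at −0.42 to 0.51, with 2 of 9 over 0.1. Deviations within a group of 3 are tied to each other, so these values cannot settle whether the replicate numbers pair the tumors. With the replicate block the 3 log2 fold changes of responsive over nonresponsive tumors were 0.65, 0.50 and 1.00 as without it, and the features past the 0.05 threshold went from 825 to 1024, from 2633 to 1042 over PBS, and from 483 to 253 for nonresponsive over PBS. With a pseudocount of 0.1 and with the block, 1 B cell gene passed in responsive over PBS tumors in place of 6. Ighg2c by symbol lost its call with no filter, in the fit of 9 tumors and with the block. Scaling to named entries moved the median of all features to −0.24 in responsive over nonresponsive and over PBS tumors. Class shares could not be recomputed without variable, diversity and joining segments, since the IgG and Igkc entries hold them, nor by leaving out tumors. Depth limits low genes such as Ighd and Ighe most.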
